A study of Mus musculus with 12 samples.

Results

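The genes described here are 36 genes of cholesterol synthesis, its control and the export and storage of lipid, chosen by name: 5 genes of the SREBP control circuit, 17 enzymes of sterol synthesis, the sterol carrier gene Stard4, the 2 LXR factors, 5 LXR targets and efflux genes, 3 genes of fatty acid synthesis and desaturation, and 3 genes of lipid storage and lipolysis. They are 36 of the 35050 rows of the count table. All 36 had 1 row each, and all 36 passed the filter on low counts. Their levels were measured by bulk RNA sequencing of poly(A) RNA in 12 libraries of mouse peritoneal macrophages, 3 libraries in each of 4 groups. The mice were male and 8 weeks old per the labels, and all of them had received 3% Brewer thioglycolate into the peritoneum 3 days before the cells were taken. Libraries of the genotype labelled Ern1fl/fl are called WT here, although both Ern1 alleles are floxed. Those of the genotype labelled Mac-Ern1KO are called KO; the labels do not name the Cre driver. Macrophages of the R300 groups spent 2 h in contact with platelets that carried the antibody R300, which binds CD42 on the platelet surface. The other 2 groups are titled blank, with the treatment given as Con, and the labels do not say whether uncoated platelets were present. The design text calls the 3 libraries of a group biological replicates and does not say whether a library is 1 mouse or a pool, so the p-values measure the spread between these libraries.

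A macrophage that takes up other cells or platelets takes up their membrane cholesterol as well. When sterol in the endoplasmic reticulum is scarce, Scap escorts the SREBP factors to the Golgi, where they are cut and released to switch on the sterol and fatty acid synthesis genes; when sterol is plentiful, the Insig proteins hold Scap back. Oxysterols made from surplus cholesterol activate the LXR factors, which raise the genes of cholesterol export, while Soat1 esterifies cholesterol for storage in droplets.

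RefSeq's promoter table (GRCm38.p6), which holds the 250 bases before and 50 bases after each gene's start, had 28 of the 36 members, in 39 windows; Fdps, Fdft1, Sqle, Stard4, Abcg1, Scd1, Scd2 and Lpl had no entry. Both strands were searched, and overlapping motifs were each counted. The core of the sterol regulatory element bound by SREBP, TCACNCCAC, was found in 1.24% of all 32851 windows and in 1 member, Hmgcs1, the cytosolic HMG-CoA synthase. The CCAAT box of the factor NF-Y was present in 22 of the 28 members (78.6%) and in 41.1% of the 27025 genes of the table. The Sp1 box GGGCGG was present in 23 of the 28 (82.1%) and in 38.2% of all genes. A direct repeat of AGGTCA with 4 bases between the copies, the DR4 element of LXR, was found with up to 2 mismatches in 1 member, Dhcr7 (3.57% of the 28 members, against 3.47% of all genes). The Hmgcs1 sequence is shown because it alone held the sterol element core, and the Abca1 sequence because Abca1 is the member that rose; the Abca1 window was chosen after its values were seen. In the Hmgcs1 sequence (chr13:119690101-119690350, plus strand, the 250 bases before the start) the capitals mark the sterol element core, 137 to 129 bases before the start, and 3 CCAAT boxes, which read ATTGG on this strand. In the Abca1 sequence (chr4:53159896-53160145, minus strand) they mark the run closest to DR4, 67 to 52 bases before the start on the opposite strand, with 3 mismatches. As close a run was held by 21.9% of all windows. The search scored likeness to AGGTCA alone and counted up to 2 mismatches, so it does not show whether LXR binds the Abca1 run.
Hmgcs1: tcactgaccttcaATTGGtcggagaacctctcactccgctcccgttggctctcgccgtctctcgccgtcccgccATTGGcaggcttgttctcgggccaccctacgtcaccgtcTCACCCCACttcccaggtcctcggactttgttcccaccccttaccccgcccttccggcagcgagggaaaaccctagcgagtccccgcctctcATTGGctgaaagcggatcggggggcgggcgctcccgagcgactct
Abca1: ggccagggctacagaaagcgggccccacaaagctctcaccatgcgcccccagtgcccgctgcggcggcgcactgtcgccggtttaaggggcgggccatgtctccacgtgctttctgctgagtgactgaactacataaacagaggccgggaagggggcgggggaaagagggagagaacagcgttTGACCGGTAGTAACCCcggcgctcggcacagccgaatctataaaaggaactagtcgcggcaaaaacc

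The libraries held 21765586 to 44273655 counts. Levels are in CPM, each gene's counts scaled to a common library size, after TMM normalisation, a correction for differences in RNA composition. Ern1, the targeted gene, stood at 94.1 to 117 CPM in WT blank, 138 to 205 in WT R300, 116 to 155 in KO blank and 174 to 235 in KO R300. It was not lower in the KO libraries, and counts over the whole gene do not check a floxed exon, so WT and KO below mean the libraries so labelled. Xist, the transcript of an inactive X chromosome, was present in 8 libraries at 143 to 590 CPM although the mice were labelled male. The other 4 libraries had no more than 0.0742 CPM: KO blank 3, KO R300 3, WT blank 3 and WT R300 2, so that each group had 1 of them. Y-linked transcripts summed to 205 to 224 CPM in these 4 libraries. The libraries with Xist held them too, at 69.5 to 162 CPM in WT and 42.6 to 71.6 in KO. Their Xist ran from 143 to 431 CPM in WT and from 464 to 590 in KO. The part of this mix in the genotype values was not tested. Markers of B cells summed to 344 CPM in WT blank 2 and 317 in KO blank 2, against 96.1 to 162 in the other 10 libraries. WT R300 1 and 3, and KO R300 1 and 2, were near-alike: the chi-square between their counts had a median of 1.37 and 1.53 per gene, against 6.15 to 10.3 for the other pairs within groups. Macrophage markers summed to 11373 to 19923 CPM in every library, and 6 of the 8 adipocyte markers, Adipoq and Plin1 among them, were under 0.1 CPM in every library.

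A few genes of lipid export, storage and lipolysis were more abundant than any synthesis enzyme. Per kilobase of exon, Apoe had the highest mean level over the 12 libraries (1644 CPM per kb), followed by Plin2 (266), Lpl (179), Abca1 (113) and Insig1 (40.2). Soat1, Srebf2 and Nr1h2 lay next and close together, at 36.9, 36.5 and 35.3 CPM per kb. The highest enzyme of sterol synthesis was Mvd at 19.7 CPM per kb, and the lowest were Lss at 1.28 and Fdps at 0.36. The length used counts every annotated exon of a gene, 10787 bases for Lss, so the rank of Lss depends on it. Before division by length the mean of Lss, 13.8 CPM, lay above those of Mvk (10.7) and Dhcr7 (13.2). Fdps, the farnesyl diphosphate synthase, had as few as 23 counts in a library.

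Contact with coated platelets was followed by a higher level of Abca1 and by little else in these genes. Averaged over both genotypes, Abca1 was 2.18-fold higher with R300 and was the only one of 36 members called by edgeR's quasi-likelihood test at a Benjamini-Hochberg adjusted p under 0.05, where 3.64% of all 16546 genes tested were called. Of the 17 sterol synthesis enzymes, 8 had a positive and 9 a negative log2 fold change, and none was called. At an unadjusted p under 0.05, Abca1 and Pmvk were higher and Stard4 lower, 3 of 36 members where 15.6% of all genes were. The median log2 fold change of the members was -0.02, against -0.00 for all genes, with 17 positive and 19 negative.

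**Figure D1:**
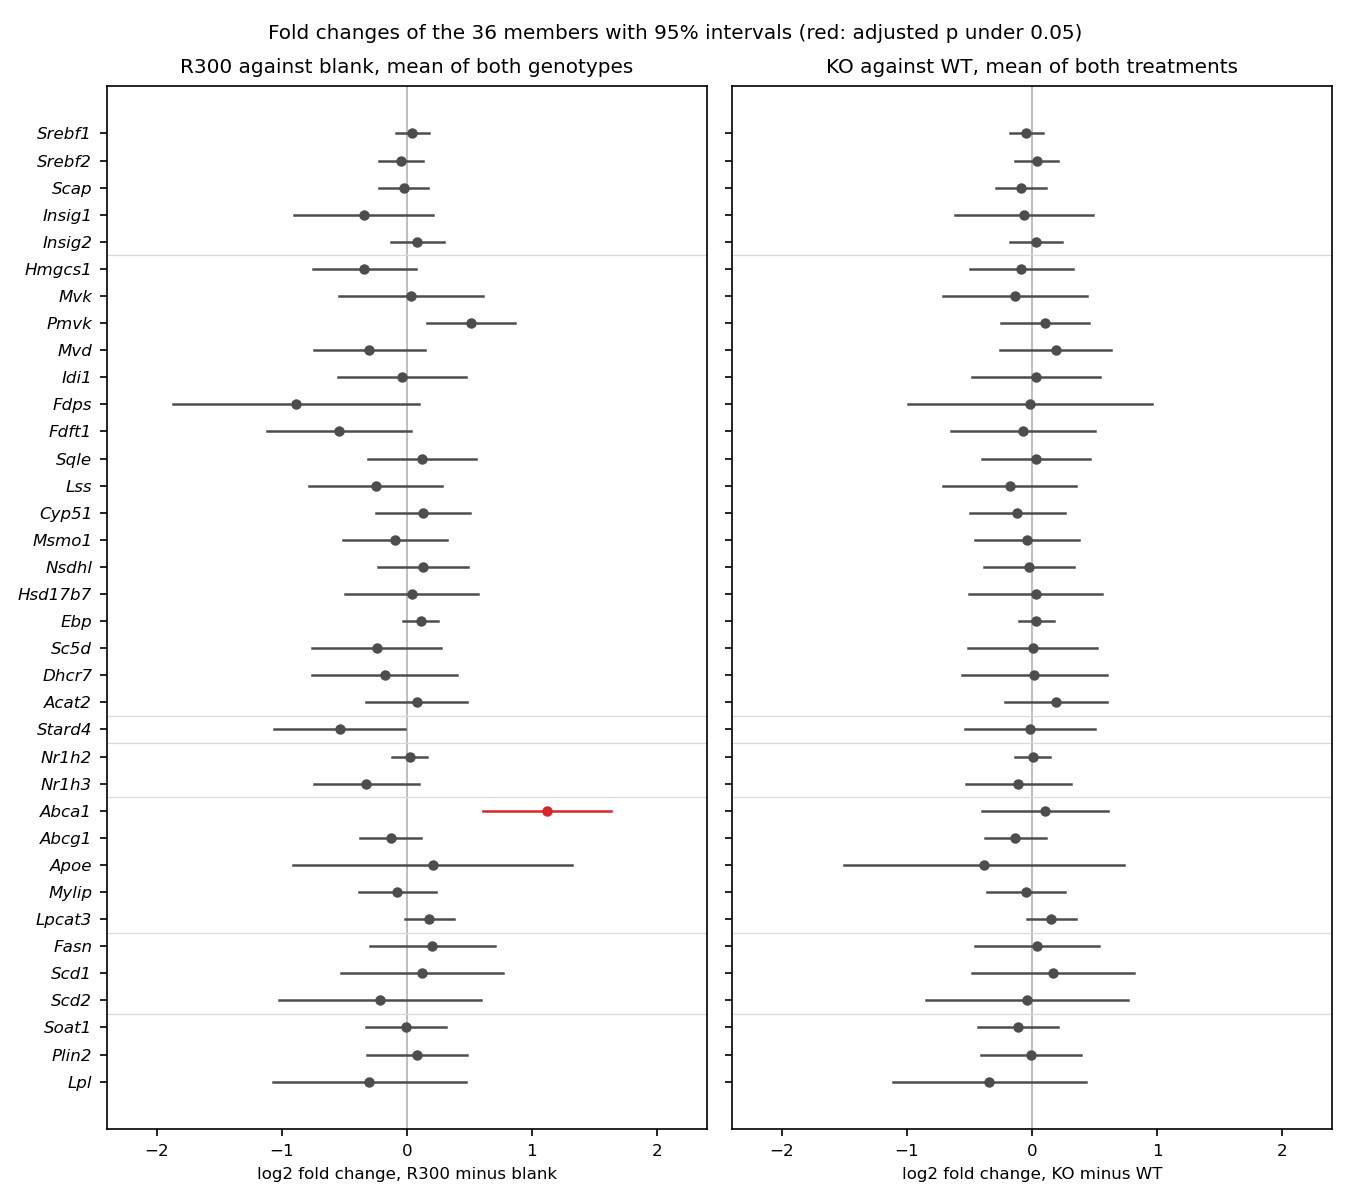
Log2 fold changes of the 36 members in the fit of all 12 libraries, with 95% intervals as bars; the left panel plots R300 minus blank averaged over both genotypes, and the right panel KO minus WT averaged over both treatments. Abca1, in red at 1.12 on the left, is the only member whose adjusted p was under 0.05; in the right panel all 36 lie between -0.38 and 0.19.

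Among the LXR targets, Abca1 encodes the transporter that hands cholesterol and phospholipid to lipid-poor apolipoprotein A-I, and its gene spans chr4:53030787-53159895 on the minus strand (GRCm38). Here and below, values are given for libraries 1, 2 and 3 of each group in turn. Abca1 stood at 701, 868 and 648 CPM in WT blank, 1829, 838 and 1772 in WT R300, 757, 826 and 609 in KO blank, and 2109, 2075 and 1007 in KO R300. With R300, 4 libraries lay at 1772 CPM or above; WT R300 2 lay within the range of its blank group, whereas all 3 KO R300 libraries lay above every KO blank library. The group means were 739 ± 115 (SD, n = 3) and 1479.8 ± 556 CPM in WT, and 731 ± 111 and 1730.1 ± 627 in KO. The averaged log2 fold change was 1.12 (SE 0.23, edgeR adjusted p = 0.0226). In each genotype alone the same test gave 1.00 in WT (SE 0.33, adjusted p = 0.333) and 1.24 in KO (SE 0.33, adjusted p = 0.151), neither of them called. In WT 0 of 36 members were called, where 0.623% of all genes were, and in KO 0 of 36, where 0.834% were. At an unadjusted p under 0.05 stood Abca1 in WT (8.72% of all genes) and Abca1 and Pmvk in KO (8.78%); DESeq2 called Abca1 in KO and no member in WT.

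Both R300 libraries in which Abca1 was lowest were libraries without Xist. Among the libraries without Xist, 1 a group and so with no test, Abca1 went from 648 to 838 CPM in WT and from 609 to 1007 in KO. Among the 8 libraries with Xist the averaged log2 fold change was 1.30 (SE 0.10, edgeR adjusted p = 0.000765). The R300 libraries of that fit were WT R300 1 and 3 and KO R300 1 and 2, which are the near-alike pairs, so its SE may be too small. Whether the 2 kinds of library differ in the response was not tested. The call was lost when 1 library of each near-alike pair was left out (adjusted p = 0.175), and when any of WT blank 1 or 3, WT R300 1 or 3, KO blank 1 or 3, or KO R300 1 or 2 was left out (0.0543 to 0.0720); the log2 fold change stayed between 0.97 and 1.30 under every alternative tried. These are bulk samples, in which fewer cells of a type and less RNA per cell cannot be told apart. In the same comparison 0 of 12 B cell markers and 0 of 10 recruited monocyte markers had a positive fold change (medians -0.78 and -0.55). Positive values were found for 9 of 9 tested eosinophil and mast cell markers and 11 of 11 tested mesothelial and fibroblast markers (medians 0.93 and 0.83). The summed mesothelial and fibroblast level nevertheless overlapped between treatments. It was 154 to 675 CPM in WT blank and 197 to 1437 in WT R300, highest in WT R300 3. In KO it was 365 to 476 CPM in blank and 365 to 849 with R300. The part of these shifts in the Abca1 result was tested only for B cells: with their summed level as a covariate Abca1 was called (edgeR adjusted p = 0.0401). Without the 2 libraries richest in B cell transcripts it was not called (log2 1.24, edgeR adjusted p = 0.0547).

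**Figure D2:**
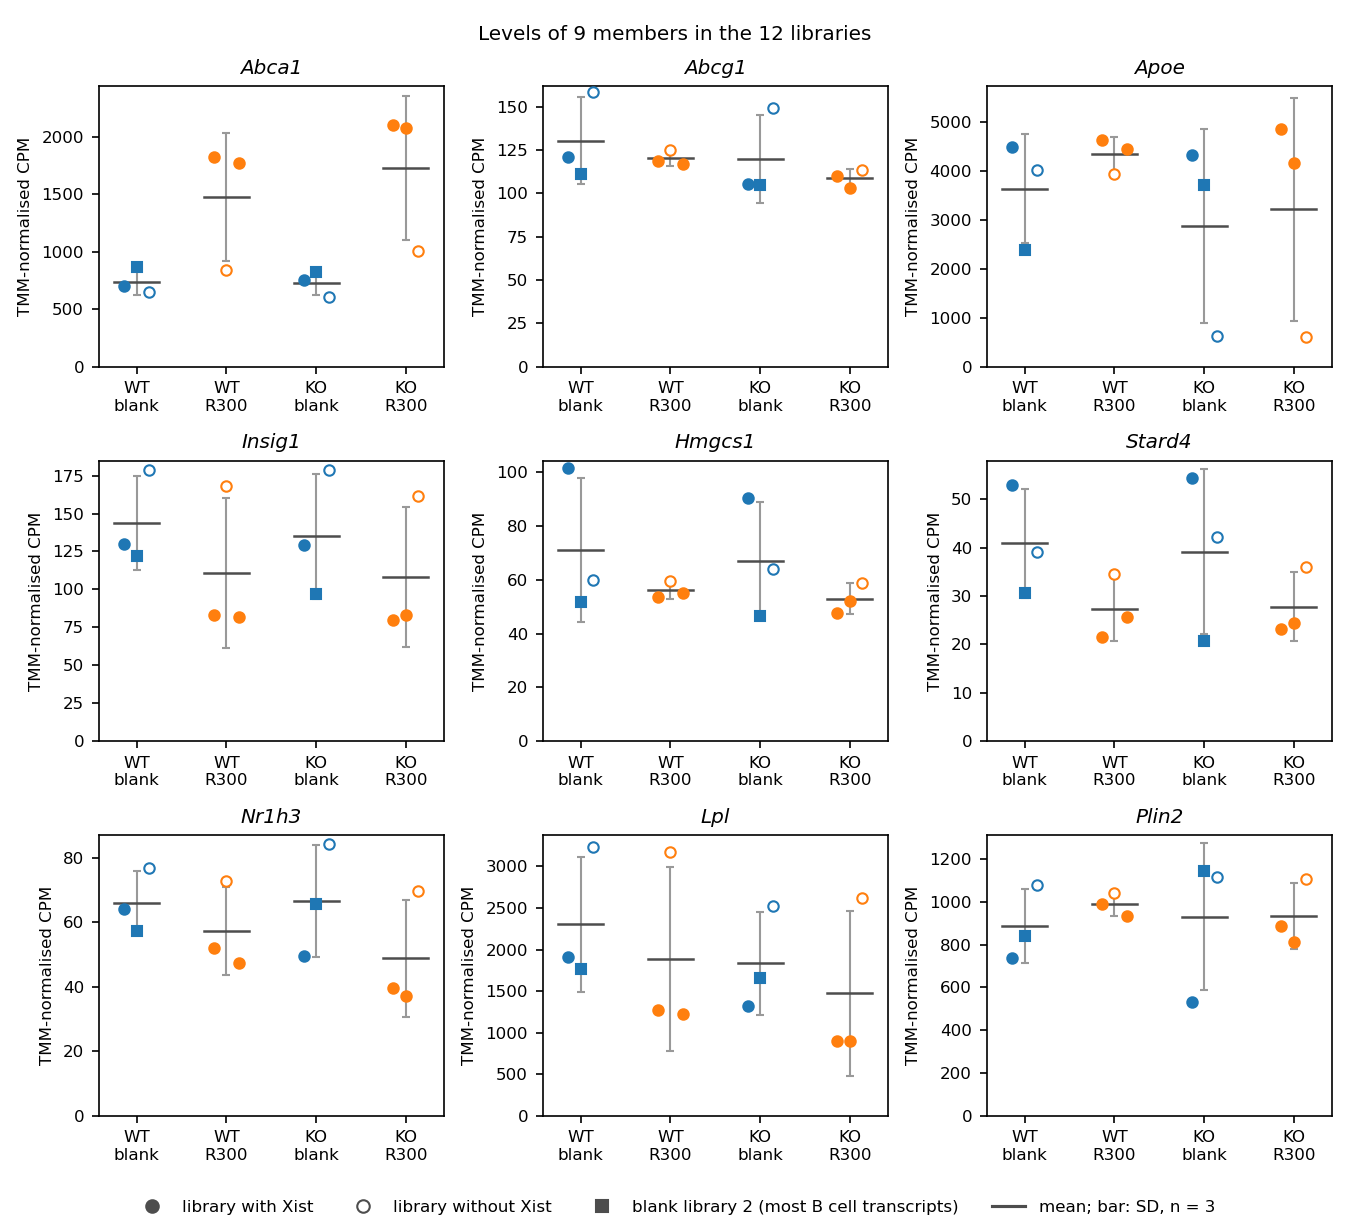
TMM-normalised CPM (vertical axes, from 0) of 9 members in the 12 libraries by group, with the mean and SD of 3 libraries; open circles are libraries without Xist and squares the 2 blank libraries with most B cell transcripts. Abca1 lies at 1772 CPM or above in 4 of 6 R300 libraries, and Apoe lies at 616 and 613 CPM in the KO libraries without Xist.

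The other LXR targets were not called. Abcg1, which passes cholesterol to high density lipoprotein, measured 121, 111 and 159 CPM in WT blank, 119, 125 and 117 in WT R300, 106, 105 and 149 in KO blank, and 110, 103 and 113 in KO R300. The blank libraries without Xist were highest in both genotypes, and the averaged log2 fold change with R300 was -0.13 (SE 0.11, edgeR adjusted p = 0.648). Lpcat3, which loads polyunsaturated fatty acids into membrane phospholipid, measured 51.6, 45.8 and 52.7 CPM in WT blank, 54.5, 53.9 and 56.1 in WT R300, 63.1, 45.1 and 53.6 in KO blank, and 69.3, 64.4 and 55.7 in KO R300. In WT the R300 libraries all lay above the blank libraries, but in KO they overlapped, and the averaged log2 fold change was 0.18 (SE 0.09, edgeR adjusted p = 0.367). Of the exonic bases of Lpcat3, 10.2% lie opposite another gene, whose reads this unstranded kit cannot tell apart. Mylip, a ubiquitin ligase that removes lipoprotein receptors, ranged from 34.2 to 57.5 CPM with an averaged change of -0.08 (SE 0.14).

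Apoe encodes the apolipoprotein that macrophages secrete with cholesterol, and lies at chr7:19696109-19699188 on the minus strand. It measured 4491, 2373 and 4024 CPM in WT blank, 4622, 3938 and 4452 in WT R300, 4316, 3702 and 616 in KO blank, and 4857, 4165 and 613 in KO R300. The KO libraries without Xist, 1 blank and 1 R300, were far below the other 10, whereas the WT libraries without Xist were not. The averaged R300 change was 0.21 on the log2 scale (SE 0.51, edgeR adjusted p = 0.902), and the spread of the KO groups left the interval from -0.91 to 1.32.

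Of the factors themselves, Nr1h3, which encodes LXRα, measured 64.0, 57.4 and 76.8 CPM in WT blank, 52.0, 72.8 and 47.3 in WT R300, 49.7, 65.7 and 84.3 in KO blank, and 39.5, 37.2 and 69.8 in KO R300. The library without Xist was highest in every group, and the groups overlapped. The averaged change with R300 was -0.32 (SE 0.19, edgeR adjusted p = 0.466). Nr1h2, which encodes LXRβ and has a pseudogene, Nr1h2-ps, in the annotation, measured 112, 124 and 121 CPM in WT blank, 112, 129 and 111 in WT R300, 108, 122 and 118 in KO blank, and 122, 118 and 125 in KO R300. Its 95% interval for the averaged change, -0.12 to 0.16 on the log2 scale, was among the narrowest of the members.

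In the SREBP circuit the factors and their escort varied little. Srebf1 measured 135, 128 and 124 CPM in WT blank, 127, 145 and 133 in WT R300, 135, 121 and 125 in KO blank, and 129, 124 and 134 in KO R300. Srebf2, whose product mainly drives the sterol genes, measured 284, 233 and 282 CPM in WT blank, 241, 281 and 233 in WT R300, 284, 246 and 271 in KO blank, and 269, 251 and 274 in KO R300. Their averaged log2 changes were 0.04 (SE 0.06) and -0.05 (SE 0.08), with overlapping libraries in both genotypes. Scap measured 34.6, 30.5 and 39.2 CPM in WT blank, 30.6, 39.2 and 35.1 in WT R300, 31.6, 32.2 and 36.7 in KO blank, and 32.3, 29.1 and 34.9 in KO R300, a change of -0.03 (SE 0.09). Of its exonic bases, 13.2% lie opposite another gene.

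The Insig genes, whose products retain Scap, differed in how far they varied. Insig1, itself a gene that SREBP switches on, measured 130, 122 and 179 CPM in WT blank, 83.1, 168 and 81.7 in WT R300, 129, 96.7 and 179 in KO blank, and 79.8, 83.1 and 161 in KO R300. The R300 libraries with Xist were the 4 lowest of all 12, and the R300 libraries without Xist lay among the blank libraries. Those 4 are the near-alike pairs, so the SE of a fit that separates libraries by Xist may be too small. The averaged log2 change was -0.35 (SE 0.25, edgeR adjusted p = 0.567). When the presence of Xist entered as a batch term it was -0.40 (SE 0.09, edgeR adjusted p = 0.0241); that fit called 3 of 36 members (8.33%: Abca1 higher, Insig1 and Nr1h3 lower), where 9.02% of all genes were called. Insig2 measured 23.0, 19.3 and 17.9 CPM in WT blank, 21.5, 17.8 and 21.7 in WT R300, 22.3, 18.4 and 18.1 in KO blank, and 23.0, 22.5 and 19.7 in KO R300, a change of 0.08 (SE 0.10).

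The sterol synthesis enzymes varied most between the libraries of the blank groups. Relative to each enzyme's mean over the 12 libraries, the median of the 17 log2 values was 0.33, -0.50 and 0.10 in WT blank, -0.21, 0.17 and -0.05 in WT R300, 0.27, -0.72 and 0.18 in KO blank, and -0.22, -0.23 and 0.14 in KO R300. Blank library 2 was the lowest of its group for 15 of 17 enzymes in each genotype, and KO blank 2 was the lowest of all 12 libraries for 12 enzymes. Blank library 1 was the highest of its group for 13 enzymes in WT and 11 in KO. The blank groups held both the highest and the lowest of these 12 medians, and the medians of the 6 R300 libraries lay between them. Both libraries at the low end were those richest in B cell transcripts.

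**Figure D3:**
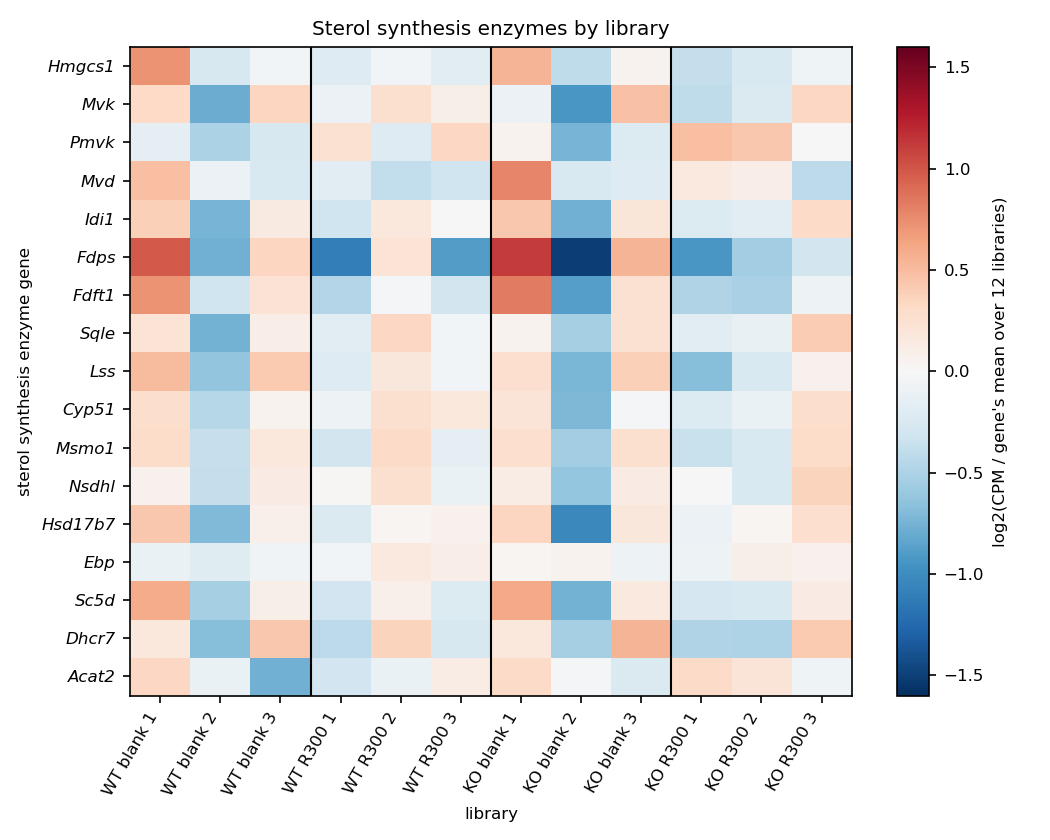
Heat map of the 17 sterol synthesis enzymes (vertical axis) in the 12 libraries (horizontal axis); the colour is the log2 ratio of the CPM to the enzyme's mean over all libraries. The blue columns are WT blank 2 and KO blank 2, with medians of -0.50 and -0.72, and the reddest columns are blank libraries 1, with medians of 0.33 and 0.27.

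Along the mevalonate arm, Pmvk, phosphomevalonate kinase, measured 9.47, 7.37 and 8.75 CPM in WT blank, 12.3, 9.04 and 13.2 in WT R300, 10.9, 6.26 and 9.01 in KO blank, and 14.6, 14.1 and 10.5 in KO R300. It was the enzyme with the lowest p, at 1.42-fold (log2 0.51, SE 0.16, edgeR adjusted p = 0.123), and the groups overlapped in both genotypes. Mvd, the mevalonate diphosphate decarboxylase, measured 50.9, 34.4 and 30.8 CPM in WT blank, 32.4, 27.8 and 29.2 in WT R300, 63.1, 31.0 and 31.6 in KO blank, and 40.8, 39.5 and 27.2 in KO R300, a log2 change of -0.30 (SE 0.20). Fdps measured 2.98, 0.89 and 1.93 CPM in WT blank, 0.71, 1.77 and 0.82 in WT R300, 3.29, 0.53 and 2.21 in KO blank, and 0.79, 1.03 and 1.24 in KO R300. Its change of -0.89 (SE 0.45, edgeR adjusted p = 0.380) was the most negative of the members, and its blank libraries lay both above and below the R300 libraries in KO. Acat2, the cytosolic thiolase that starts the pathway, measured 8.91, 6.56 and 4.15 CPM in WT blank, 5.75, 6.58 and 7.72 in WT R300, 8.76, 6.91 and 6.03 in KO blank, and 8.76, 8.18 and 6.74 in KO R300, with a change of 0.08 (SE 0.18). Hmgcs1, whose promoter sequence is printed above, ranged from 46.6 to 102 CPM with a change of -0.34 (SE 0.19), and Mvk and Idi1 changed by 0.03 and -0.04 (SE 0.26 and 0.23).

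On the squalene and sterol arm, Fdft1, squalene synthase, measured 32.3, 15.8 and 23.0 CPM in WT blank, 14.2, 19.2 and 16.1 in WT R300, 34.8, 10.7 and 23.2 in KO blank, and 14.04, 13.7 and 18.6 in KO R300. All R300 libraries lay below blank libraries 1 and 3 of their genotype, while blank library 2 lay among or below them. The log2 change was -0.54 (SE 0.26, edgeR adjusted p = 0.356); 18.3% of the exonic bases of Fdft1 lie opposite another gene. Lss, lanosterol synthase, measured 19.6, 8.88 and 18.4 CPM in WT blank, 11.9, 15.6 and 13.3 in WT R300, 16.6, 8.29 and 17.9 in KO blank, and 8.62, 11.7 and 14.5 in KO R300, with R300 libraries again between the blank ones in WT, and a change of -0.25 (SE 0.24). Of the other enzymes of this arm, Cyp51, Nsdhl, Sqle, Ebp and Hsd17b7 had positive changes of 0.04 to 0.13 and Sc5d, Dhcr7 and Msmo1 negative ones of -0.24 to -0.09. Ebp, the X-linked sterol isomerase, was higher in all 3 WT R300 libraries (30.5 to 35.0 CPM) than in the WT blank libraries (27.6 to 30.3 CPM). Ebp and Lpcat3 were the 2 of 36 members whose libraries did not overlap in WT, where 12.8% of all genes did not; in KO it was Abca1 alone, where 12.3% did not.

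Stard4, a soluble carrier that moves cholesterol between membranes, measured 53.0, 30.5 and 39.2 CPM in WT blank, 21.6, 34.5 and 25.7 in WT R300, 54.5, 20.8 and 42.2 in KO blank, and 23.1, 24.4 and 35.98 in KO R300. As with the enzymes, blank library 1 was highest and blank library 2 lowest of its group. The averaged log2 change was -0.54 (SE 0.24, unadjusted p = 0.0448, edgeR adjusted p = 0.304), so Stard4 was not called.

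Without WT blank 2 and KO blank 2, the libraries with the lowest medians of these enzymes, 3 of the 17 enzymes had a positive change with R300. In that fit of 10 libraries, an alternative added after the values were seen, their median was -0.29, against -0.04 with all 12 libraries. Leaving out the blank libraries in which most of these enzymes were lowest raises their blank means. The shift to negative changes therefore follows from that choice of libraries. The lower enzymes called below rest on the same choice. Fdft1 was called (log2 -0.83, SE 0.16, edgeR adjusted p = 0.0332), and Abca1 was not (log2 1.24, SE 0.29, adjusted p = 0.0547), so 1 of 36 members was called where 3.56% of all genes were. When the presence of Xist was added as a batch term for those 10 libraries, 9 of 36 members (25%) were called, where 15.1% of 16781 genes were. Abca1 and Pmvk were higher (log2 1.03 and 0.29), and Fdps, Fdft1, Stard4, Lss, Mvd, Insig1 and Dhcr7 were lower (log2 -1.30, -0.83, -0.77, -0.50, -0.48, -0.43 and -0.37). Hmgcs1 and Scd2 were at -0.54 and -0.61 and were not called (edgeR adjusted p = 0.0699 and 0.0773). The 7 lower genes also had negative values with all 12 libraries, where none was called. That fit includes the same 10 libraries, so the shared sign is not separate support. These blank groups held 2 libraries each, and with only B cell level as a covariate in all 12 libraries the calls were Abca1 higher and Fdft1 lower.

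**Figure D4:**
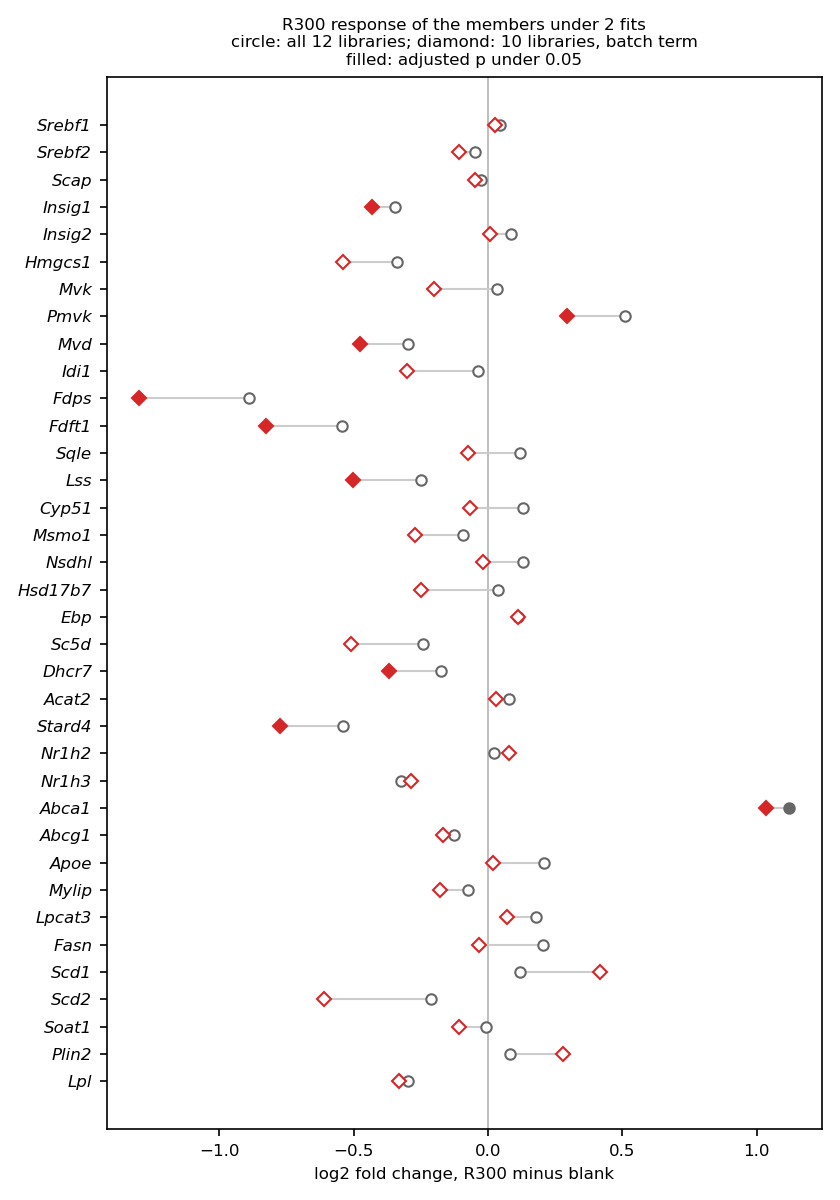
Log2 fold change of each member, R300 minus blank averaged over both genotypes (horizontal axis), in the fit of all 12 libraries (grey circles) and in the fit of 10 libraries with a batch term (red diamonds); filled symbols have an adjusted p under 0.05. Fdps moves from -0.89 to -1.30 and Fdft1 from -0.54 to -0.83, while Abca1 stays at 1.12 and 1.03. The fit of 10 libraries leaves out the blank libraries with the lowest enzyme medians, which by itself lowers the change of most enzymes.

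Fatty acid genes were not called. Fasn, fatty acid synthase, measured 46.6, 25.2 and 24.9 CPM in WT blank, 37.0, 26.3 and 53.2 in WT R300, 48.3, 26.0 and 29.7 in KO blank, and 39.3, 42.1 and 33.0 in KO R300, a log2 change of 0.20 (SE 0.23). Scd2, a stearoyl-CoA desaturase, followed the enzymes: 62.7, 17.5 and 42.2 CPM in WT blank, 29.6, 38.5 and 42.5 in WT R300, 65.0, 13.1 and 46.7 in KO blank, and 27.8, 34.7 and 40.1 in KO R300, a change of -0.21 (SE 0.37). Scd1, its paralogue, had its highest level of both blank groups in library 2, where Scd2 had its lowest: 9.56, 23.4 and 9.86 CPM in WT blank, 15.3, 9.17 and 21.1 in WT R300, 12.8, 22.0 and 12.3 in KO blank, and 19.0, 21.8 and 11.7 in KO R300. Its change was 0.12 (SE 0.29).

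The storage and lipolysis members were not called either. Soat1 measured 376, 290.4 and 459 CPM in WT blank, 348, 430.0 and 352 in WT R300, 339, 269 and 440.0 in KO blank, and 309, 326 and 400.3 in KO R300, a log2 change of -0.01 (SE 0.15). Plin2, a coat protein of lipid droplets, measured 738, 841 and 1076 CPM in WT blank, 989.8, 1038 and 934 in WT R300, 533, 1142 and 1115 in KO blank, and 884, 811 and 1104 in KO R300, a change of 0.08 (SE 0.18). Lpl, lipoprotein lipase, which frees fatty acids from lipoprotein triglyceride, measured 1906, 1764 and 3238 CPM in WT blank, 1273, 3168 and 1221 in WT R300, 1325, 1656 and 2519 in KO blank, and 902, 905 and 2623 in KO R300. The library without Xist was the highest of every group for Lpl. The R300 libraries with Xist were the near-alike pairs, so the SE of a fit of the libraries with Xist may be too small. The averaged change was -0.30 (SE 0.35, edgeR adjusted p = 0.758) with all libraries and -0.64 (SE 0.09, adjusted p = 0.0108) among the 8 libraries with Xist, where 3 members were called (8.33%: Abca1 higher, Insig1 and Lpl lower) and 6.04% of all genes were.

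The genotype made no called difference in any of the 36 genes. No difference between KO and WT libraries was called by edgeR in the blank state, with R300, or averaged over both treatments (0 members called each time, where 0%, 0% and 0.00604% of all genes were), and none in the difference of the R300 responses (0 of 36, and 0% of all genes). In the main fit of all 12 libraries no member reached an unadjusted p under 0.05 in these 4 comparisons, where 1.09%, 1.96%, 2.8% and 0.574% of all genes did, and DESeq2 called no member. Averaged over both treatments, the log2 differences of the members ran from -0.38 for Apoe (SE 0.51) to 0.19 for Acat2 (SE 0.18), with a median of -0.02 and 16 positive; the lowest p was that of Lpcat3 (0.16, SE 0.09, unadjusted p = 0.106). For Abca1 the difference of the responses, KO minus WT, was 0.24 (SE 0.46), with a 95% interval from -0.77 to 1.25, so a difference of that size was not resolved. Among R300 libraries, Abcg1 was lower in all 3 KO libraries (103 to 113 CPM) than in all 3 WT libraries (117 to 125 CPM), the only member of 36 without overlap there, where 7.91% of all genes did not overlap; in the blank state no member was without overlap, against 3.7% of all genes. In the averaged genotype comparison the macrophage markers summed to 17791 to 19923 CPM in WT and 11373 to 15629 in KO. Of these, Lyz2, the lysozyme gene, measured 12183 to 13522 CPM in WT and 6058 to 7317 in KO; the other 9 markers summed to 5158 to 7259 CPM in WT and 5162 to 8375 in KO. In the same comparison 10 of 10 resident peritoneal macrophage markers had a positive difference (median 0.97). Their sum overlapped between genotypes, at 71.4 to 175 CPM in WT blank and 83.3 to 514 in KO blank. With R300 it was 112 to 233 CPM in WT and 117 to 629 in KO. In KO blank 3 and KO R300 3, which lack Xist, Prg4 measured 22.5 and 29.3 CPM. It was 121 to 269 CPM in the other KO libraries and 13.2 to 73.4 in WT. Timd4, at 4.12 and 5.53 CPM in those 2, was below WT (12.5 to 21.1). The part of these markers in the genotype values was not tested.

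The libraries without Xist differed from the others in some of these genes whatever the treatment. In 6 members (Insig1, Nsdhl, Dhcr7, Nr1h3, Soat1 and Lpl) all 4 lay above all 8 libraries with Xist, and in no member below them. That was a share of 16.7%, where 13% of all 16546 genes did not overlap, 1250 of them above and 900 below. Whether the members differ from other genes in this was not tested. Lpl measured 2519 to 3238 CPM without Xist and 902 to 1906 with it, and Insig1 161 to 179 and 79.8 to 130.1 CPM. Nsdhl, a sterol dehydrogenase gene on the X chromosome, measured 14.1 to 16.5 and 8.39 to 13.96 CPM.

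Among other genes of lipid handling, listed by pathway, 5 were called with R300 averaged over both genotypes and all 5 rose. They were 5 of 91 listed genes tested, or 5.49%, where 3.64% of all genes were called. Of the 14 tested genes of droplets and lipolysis 2 rose, Dgat1 and Hilpda; of 13 LXR cofactors and other targets 1, Arl4c; of 9 other sterol synthesis genes 1, Por; and of 8 PPAR genes 1, Ppard. None of 10 genes of SREBP processing, 15 of fatty acid synthesis, 18 of sterol uptake and trafficking, or 4 of oxysterol synthesis was called. Dgat1, the enzyme of the last step of triglyceride synthesis, measured 17.6, 19.998 and 19.6 CPM in WT blank, 70.0, 86.4 and 78.1 in WT R300, 15.2, 20.5 and 17.3 in KO blank, and 71.6, 66.0 and 86.6 in KO R300. Every R300 library lay above every blank library, with 4.16-fold the level (log2 2.06, SE 0.10, edgeR adjusted p = 2.33e-06), and Dgat1 was called in each genotype alone (4.10-fold in WT, 4.22-fold in KO). Hilpda, a droplet protein that slows lipolysis, measured 24.0, 56.0 and 91.4 CPM in WT blank, 215, 334 and 216 in WT R300, 22.5, 80.2 and 87.4 in KO blank, and 231, 238 and 316 in KO R300. Its R300 libraries were all above its blank libraries, at 4.29-fold (log2 2.10, SE 0.37, edgeR adjusted p = 0.0101).

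Por, the reductase that supplies electrons to the P450 enzyme Cyp51 and to squalene epoxidase, measured 312, 261 and 304 CPM in WT blank, 514, 413 and 509 in WT R300, 241, 324 and 302 in KO blank, and 492, 456 and 424 in KO R300, without overlap (1.61-fold, edgeR adjusted p = 0.00296). Ppard, a nuclear receptor for fatty acids, measured 58.8, 58.4 and 53.9 CPM in WT blank, 88.0, 86.5 and 85.1 in WT R300, 71.6, 58.0 and 55.1 in KO blank, and 102.6, 91.9 and 86.3 in KO R300 (1.52-fold, edgeR adjusted p = 0.00147). For both, as for Dgat1 and Hilpda, the libraries without Xist were higher with R300 too. Arl4c, a small GTPase gene and LXR target, measured 181, 290.4 and 154 CPM in WT blank, 478, 258 and 461 in WT R300, 189, 252 and 176 in KO blank, and 550.1, 502 and 289.7 in KO R300. As for Abca1, the R300 libraries without Xist were the lowest, WT R300 2 lay within its blank group, and the averaged change was 2.04-fold (edgeR adjusted p = 0.0305). The higher R300 libraries of Arl4c were the near-alike pairs, which the fit counts as separate libraries. Calls of genes outside the member list were not checked under the alternative fits.

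**Figure D5:**
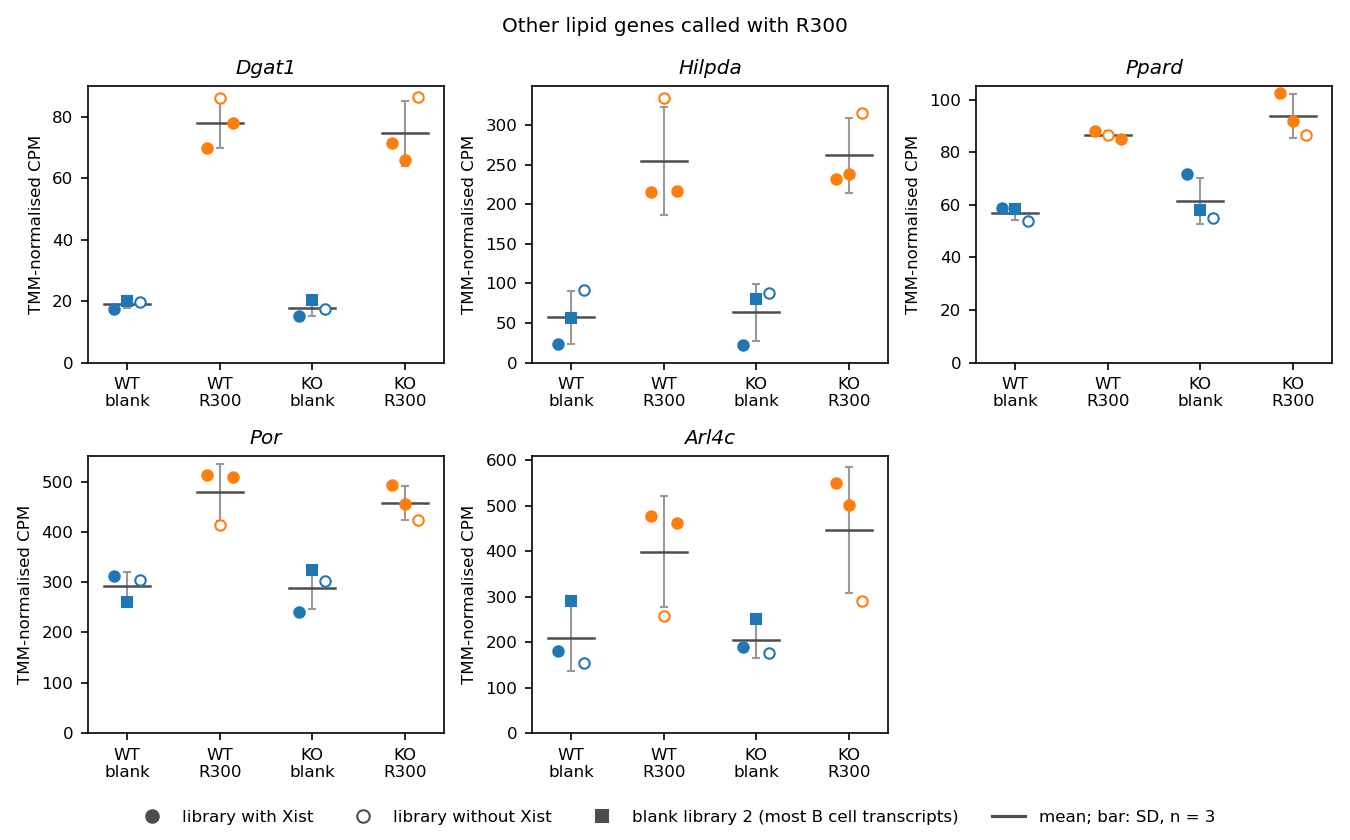
TMM-normalised CPM (vertical axes, from 0) of the 5 called genes outside the member list in the 12 libraries by group, with the mean and SD of 3 libraries; symbols are as in the plot of member levels by library. All R300 libraries lie above all blank libraries for Dgat1 (66.0 to 86.6 against 15.2 to 20.5 CPM), Hilpda, Ppard and Por; for Arl4c the levels of WT R300 2 and KO R300 3 lie below that of WT blank 2.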

How the data were processed

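The authors deposited raw counts for each gene symbol. The submitters' processing notes list the mm10 genome, featureCounts 2.0.3, HISAT2, fastp 0.23.4, FastQC 0.12.1 and DESeq2 1.42.0. The labels' protocols name a NEBNext Ultra RNA kit, a type that keeps no strand information. The 102 rows without a symbol (0.0232% to 0.0328% of counts) were left out. Counts were tested with edgeR 4.0.16 in R 4.3.3 (TMM, filterByExpr by group, robust quasi-likelihood fit of all 12 libraries with 1 mean per group, 16546 genes, Benjamini-Hochberg adjusted p under 0.05). The SE is the log2 fold change divided by the root of F, and intervals are 95%. The common biological coefficient of variation was 0.267. Such a fit was checked on simulated counts of independent libraries with the same spread for all genes. The simulation had no near-alike pairs and no differences in Xist or B cell transcripts, so it does not show how the fit behaves with them. The 7 contrasts were R300 against blank in each genotype and averaged, KO against WT in each treatment and averaged, and the difference of the responses. With 3 libraries a group the smallest exact permutation p of a single value, two-sided, is 0.1, so none is given.

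The members, gene lists and rules were chosen with earlier results of these data known. A member got its value in every library if called, or if among the 3 lowest p of its role list for the averaged R300 or genotype contrast. Hmgcs1, Dhcr7, Ebp and the other members outside that rule are given by range or fold change. Genes of other pathways were named where called. Positions and exon lengths are from GENCODE vM21 (GRCm38, the assembly of mm10), and promoters from RefSeq. Alternatives were the DESeq2 1.42.0 Wald test, 2 other normalisations, a fit of the compared groups alone, no low-count filter, the replicate number as a block, a batch term for the presence of Xist, only libraries with Xist, 1 library of each near-alike pair, B cell level as a covariate, and each library left out; 2 more, without the libraries richest in B cell transcripts, were added after seeing the data, as was a block fit of the blank groups alone. Same-numbered WT and KO blank libraries deviated together from their group means (correlations 0.61 to 0.69, 3 of 3 matching their own number best). The numbers may therefore pair these 2 groups, which the labels do not say. In both groups library 3 lacks Xist and library 2 is richest in B cell transcripts, so a pairing cannot be told apart from a shared make-up.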

Additional observations from a re-analysis of the deposited data

How the results depend on the processing

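In the 4 comparisons of genotype and of the responses, no alternative called a member. For R300 in WT, 1 member (Abca1) was called with the batch term for libraries without Xist and with only libraries with Xist; leaving out any library gave 0. For R300 in KO, 1 member (Abca1) was called by DESeq2, with the batch term, with only libraries with Xist, and without the libraries richest in B cell transcripts with the batch term; leaving out a library gave 0 to 1, the 1 without KO R300 3. For R300 averaged, the main count was 1; it was 2 by DESeq2 (Pmvk and Abca1, with 7.39% of all genes called), 0 without a filter on low counts (Abca1 adjusted p = 0.0825), 3 with the batch term, 3 with only libraries with Xist, 0 with 1 library of each near-alike pair, 2 with the B cell covariate (Abca1 and Fdft1), 9 without the libraries richest in B cell transcripts with the batch term, and 0 to 1 when a library was left out. The cause was not tested. With the replicate number as a block, the averaged count was 1 (Abca1), with 667 genes called in all, and no other count of members changed. Outside the blank groups same-numbered libraries correlated from -0.75 to 0.69, above 0.1 in 7 of 15 pairs, of which 3 matched their own number best. Among these, KO R300 3 correlated with WT blank 3 (0.67) and KO blank 3 (0.69) as closely as the same-numbered blank libraries did with each other. All of these libraries numbered 3 lack Xist. A shared number was not read as a pairing outside the blank groups. For the blank groups, which the numbers may pair, a block fit of those 6 libraries alone, added after seeing the data, called 0 of 36 members and 0 of 15809 genes. At an unadjusted p under 0.05 by edgeR, 1 of 36 members was lower in KO, where 4.28% of all genes differed. It was Lpl (log2 -0.33, SE 0.12, unadjusted p = 0.0319). Only the groups compared could not be fitted for the averages or the difference of responses. Over the members given by their value in every library (168 results), 3952 of 3984 values under alternatives kept their side of the threshold. A call was gained by 21 and lost by 11, and no called value changed sign, whereas 378 uncalled values did. The other members, Dhcr7 among them, were not in this count. Low counts limit Fdps most.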

Other observations

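Apoe set the KO libraries without Xist apart from the other 10 libraries more than almost any gene. Over 8398 genes with a mean of at least 10 CPM, genes were ranked by the higher of the KO blank 3 and KO R300 3 levels over the lowest level among the other 10 libraries. Apoe ranked 2, at a ratio of 0.26 (616 against 2373 CPM), after Xist and before Timd4, a marker of resident peritoneal macrophages (rank 3, 0.44). In all, 216 genes were below every other library in both, and 3 were at a ratio of 0.5 or less. The neighbouring genes Tomm40 and Clptm1 did not share the pattern: Tomm40 measured 37.9 and 42.1 CPM in those libraries and 32.2 to 39.0 in the others, and Clptm1 142.3 and 149.6 against 140.1 to 155.0 CPM. The gene and the libraries were chosen after their values were seen.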
